A study of Mus musculus with 4 samples.

Results

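TRAV7-2 and TRAV7D-2 are near-identical V segments of the mouse TCRα locus, and the clones assigned to them were followed across 4 TCR SMART-seq libraries of splenic CD4 T cells. A clone was taken when the first V segment listed for it was TRAV7-2 or TRAV7D-2, without regard to the allele. This gave 17326 of the 189388 TCRα clones, with 105086 of the 871808 TCRα reads. The segments were selected on their measured share of TCRα reads, the highest of all V segments, so that share is described below and was not tested.

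The libraries came from 2 wild type (WT) mice of the C57BL/6 background and from 2 Tet2/3 DKO mice, which carry a germline Tet2 deletion (Tet2-/-) and floxed Tet3 alleles (Tet3 flx/flx) deleted by CD4Cre, a Cre that is active from the double positive stage of the thymus. Male and female mice with an average age of 25 days were used. Total CD4 T cells were sorted from the spleen as live CD4+ TCRβ+ cells, naive and activated together, without B cells, CD25+ cells and αGalCer-CD1d tetramer binding iNKT cells, so that regulatory T cells that express CD25 were also left out. The libraries were made from RNA of whole populations and do not tell which TCRα chain was paired with which TCRβ chain.

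In developing thymocytes a TCRα gene is made by joining 1 V segment (TRAV) to 1 J segment (TRAJ), with bases trimmed from both ends and others added between them. The joint encodes the CDR3, the loop that contacts the peptide, while CDR1 and CDR2 are encoded by the V segment itself. The locus can rearrange repeatedly on the same allele, at first between V and J segments that lie close together and later between segments farther apart, so the J segments joined to a given V segment are related to its position. The mouse locus holds duplicated blocks of V segments, whose copies carry the letters D or N in their names, and several copies cannot be separated by sequence.

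The 2 segments could not be told apart in these libraries. All 17326 clones were listed as TRAV7-2 with TRAV7D-2 at the same alignment score, with 0 clones listed as TRAV7D-2 first, and no other segment was ever listed. Such ties at the highest score covered 23.3% to 28.3% of the reads of all other V segments. Hereafter both segments are called TRAV7-2/7D-2, and every value is their sum. In the GRCm38.p6 assembly, the build named as mm10 in the submitters' processing notes, both genes lie on chromosome 14. Trav7-2 is annotated at chr14:53390633-53391136 and Trav7d-2 at chr14:52683964-52684472, which is 707 kb farther from the J segments. Between Trav7-2 and Traj58, the J segment nearest to the V segments, lie 767 kb and 47 other annotated Trav genes. The corresponding values for Trav7d-2 are 1473 kb and 121 genes.

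The most frequent sequence of the V part is shown because most of these clones carried it and because it defines the CDR1 and CDR2 loops, given in capitals. It runs 5′ to 3′ over 264 bases, from framework region 1 to the base before the CDR3, and was read from the deposited clone sequences.
TRAV7-2/7D-2: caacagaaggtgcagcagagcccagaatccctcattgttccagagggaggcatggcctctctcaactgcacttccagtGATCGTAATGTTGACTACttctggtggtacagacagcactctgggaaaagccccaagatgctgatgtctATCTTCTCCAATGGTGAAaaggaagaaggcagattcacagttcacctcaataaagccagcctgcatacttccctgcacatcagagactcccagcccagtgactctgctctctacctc
Between 95.7% and 96.3% of the reads in each library carried this sequence without a difference, and 99.8% carried this CDR1. By clones the share without a difference was lower, 78.8% to 82.7%, and no clone that differed from it held more than 27 reads. The V part ends inside the CDR3 with 13 bases, which encode Cys-Ala-Ala-Ser and the start of a further codon. It is printed with the start of the J segments named most often below, each as found in clones without trimming.
TRAV7-2/7D-2 end: tgtgcagcaagca
TRAJ15 start: cctaccagggaggcagagctctgatattt
TRAJ22 start: catcttctggcagctggcaactcatcttt
TRAJ30 start: tgacacaaatgcttacaaagtcatcttt
TRAJ31 start: ggaatagcaataacagaatcttcttt
Most CDR3s of TRAV7-2/7D-2 began with the residues of this end. Between 94.2% and 94.7% of the in-frame clones began with CAA, and 56.4% to 57.1% with CAAS.

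TRAV7-2/7D-2 was the most used V segment in every library, both by reads and by clones, and it held a larger share of the reads than of the clones. In WT replicate 1, 21012 of 172506 TCRα reads belonged to it, a share of 12.2% with a 95% Wilson interval of 12.03% to 12.3%. In WT replicate 2, 25981 of 216457 reads did, a share of 12.003% (11.9% to 12.1%). Tet2/3 DKO replicate 1 had 24684 of 195046 reads, or 12.7% (12.5% to 12.8%), and replicate 2 had 33409 of 287799 reads, or 11.6% (11.5% to 11.7%). The libraries carry no molecular identifiers, so these intervals, here and below, cover counting error only. The WT libraries lay between the Tet2/3 DKO libraries. The corresponding shares of clones were 9.35% and 8.98% in the WT libraries, then 9.09% and 9.20% in the Tet2/3 DKO libraries, from 3691, 4381, 4300 and 4954 clones. The next segments by reads were TRAV6-6, with a mean of 6.60% over the 4 libraries, TRAV7-5 with 6.18% and TRAV7D-5 with 3.20%. When the D and N copies of all segments were added to their plain copies, TRAV7-2 still ranked first, at 12.1%, before TRAV7-5 at 9.38% and TRAV6-6 at 7.89%. The rest of the TRAV7 family was less used, from 2.68% for the merged TRAV7-3 copies and 1.38% for TRAV7-6 to 0.201% for TRAV7-4 and 0.0877% for TRAV7-1.

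The share of reads of TRAV7-2/7D-2 was compared between genotypes in a fit over all 101 V segments with edgeR's quasi-likelihood test and Benjamini-Hochberg adjustment. The log2 fold change of Tet2/3 DKO over WT was 0.0048 ± 0.17 (SE, 2 libraries per genotype, edgeR adjusted p = 0.979). No V segment passed the threshold of 0.05, a background of 0% of the 101 segments. At an unadjusted p under 0.05 there were 3 segments, TRAV7-2 not among them, and DESeq2 also called 0 segments at the threshold and 3 unadjusted. Without Tet2/3 DKO replicate 1, edgeR called 4 segments, again without TRAV7-2.

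Clones of TRAV7-2/7D-2 held more reads each than those of other segments. The mean was 5.69 and 5.93 reads per clone in WT and 5.74 and 6.74 in Tet2/3 DKO, against 4.23, 4.29, 3.96 and 5.20 for all other V segments in the same order of libraries. Among the 42 V segments with at least 300 clones in every library, this was the highest mean over libraries, 6.03 reads, where the other 41 ranged from 3.24 to 5.40. Reads per clone enter the share of reads that the segments were selected on, so this is a description. The share of clones seen as a single read was similar in both, 24.5% to 26.0% for TRAV7-2/7D-2 and 25.9% to 26.9% for the rest. Out-of-frame clones had fewer reads than those of other segments in 3 of 4 libraries. They held 2.93, 3.06, 2.86 and 4.01 reads per clone, against 3.20, 3.37, 3.23 and 3.95 in the same order. In-frame clones held 5.84, 6.09, 5.90 and 6.91 reads, against 4.44, 4.45, 4.09 and 5.45. Between genotypes, reads per clone were 5.81 ± 0.17 for WT against 6.24 ± 0.71 for Tet2/3 DKO (SD over n = 2 libraries each, two-sided exact permutation p = 0.667), and the genotypes overlapped. With 2 libraries per genotype this test cannot give a p-value below 0.333, and after Benjamini-Hochberg adjustment over the 7 measures compared between genotypes in this way the values were 0.933 to 1. Without Tet2/3 DKO replicate 2 the difference turned from 0.43 to -0.071 reads per clone.

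A larger share of TRAV7-2/7D-2 than of other rearrangements was in frame, that is, encoded a CDR3 without a frameshift or stop codon. In-frame clones held 97.6% of its reads in WT replicate 1 and 97.4% in WT replicate 2, and 97.4% and 96.9% in Tet2/3 DKO replicates 1 and 2. For all other V segments of the same libraries the shares were 88.5%, 88.7%, 87.9% and 88.8%, so the 2 sets of values did not overlap. The difference was 8.86 ± 0.66 percentage points (SD, n = 4 libraries) and had the same sign in 4 of 4 libraries (two-sided exact sign-flip permutation p = 0.125, the smallest that 4 libraries allow, 0.167 after Benjamini-Hochberg adjustment over 4 such comparisons). Counted by clones, 94.7% to 95.4% of the clones of TRAV7-2/7D-2 were in frame against 84.7% to 85.5% of the others. Within the TRAV7 family the difference was smaller, 5.73 percentage points in favour of TRAV7-2/7D-2, again in 4 of 4 libraries. A high in-frame share was not particular to TRAV7-2/7D-2. Among the 42 V segments its mean of 94.96% by clones ranked behind TRAV7D-3 with 95.2% and just above TRAV7-3 with 94.6%, and the other segments ranged from 54.3% to 95.2% with a median of 87.6%. By reads the genotypes overlapped, with 97.5% ± 0.17 for WT against 97.2% ± 0.41 for Tet2/3 DKO (SD over n = 2 libraries each, two-sided exact permutation p = 0.667). By clones they did not, with 95.36% and 94.91% in the WT libraries, then 94.85% and 94.72% in the Tet2/3 DKO libraries (two-sided exact permutation p = 0.333 with n = 2 per genotype). The other V segments held 85.1% in WT and 85.2% in Tet2/3 DKO by this count.

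**Figure D1:**
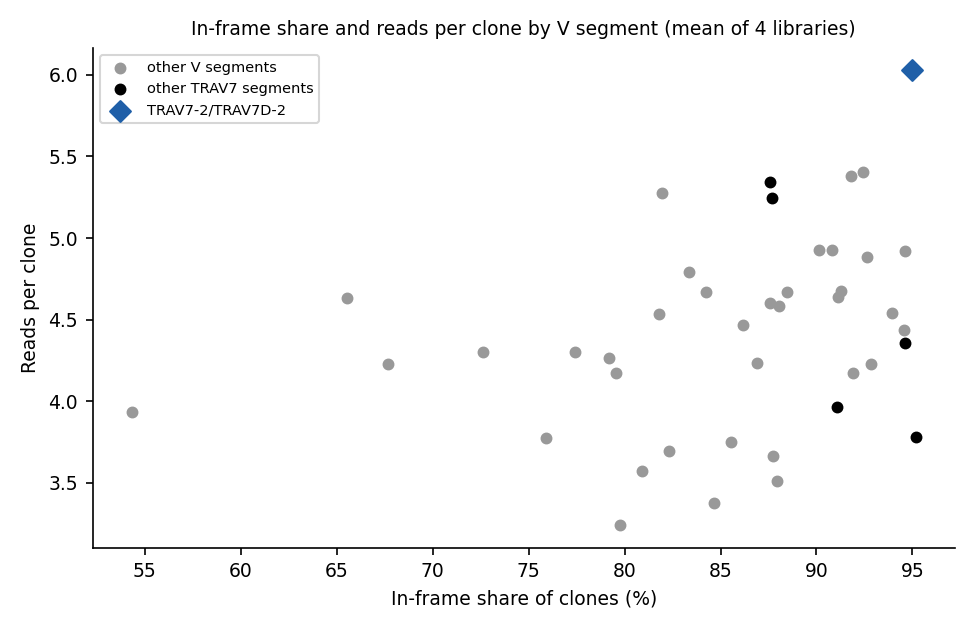
In-frame share of clones (x axis, percent) and reads per clone (y axis, axis not starting at 0) of the 42 V segments with at least 300 clones in every library, each point the mean of 4 libraries. TRAV7-2/7D-2 (blue diamond) lies at 94.96% in frame and 6.03 reads per clone, above the other 41 segments in reads per clone, and close to other segments in in-frame share.

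TRAV7-2/7D-2 was joined to almost the whole set of J segments. A clone was found in every library for 43 of the 44 TRAJ segments in the tables, the exception being TRAJ41, which is named here after its values were seen. TRAJ41 was nearly absent from other V segments too, at 0.0028% and 0.0045% of their clones in WT and 0% in Tet2/3 DKO. The use of J segments was uneven. The effective number of TRAJ partners, taken from the Shannon entropy of the TRAJ shares of reads and equal to the number of TRAJ segments when all are used alike, was 27.6 and 27.7 in the WT libraries, then 27.6 and 27.2 in the Tet2/3 DKO libraries, against 34.8 to 35.8 for all other V segments pooled. The pool joins V segments from many positions, and single segments were all lower. The mean of TRAV7-2/7D-2, 27.5, lay above the median of 25.4 of the other 41 segments, which ranged from 13.6 to 32.2. The 2 genotypes did not overlap in this measure (27.7 ± 0.055 for WT against 27.4 ± 0.29 for Tet2/3 DKO, SD over n = 2 libraries each, two-sided exact permutation p = 0.333), but the difference changed sign when each clone was counted once, to 0.066, and when the 10 most abundant clones of each library were left out, to 0.17.

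The 5 J partners with most reads were TRAJ15, TRAJ22, TRAJ31, TRAJ37 and TRAJ27, with means of 9.02%, 7.99%, 6.997%, 6.51% and 5.64% of the TRAV7-2/7D-2 reads. TRAJ15 held 8.48% and 8.90% in the WT libraries, then 9.38% and 9.32% in the Tet2/3 DKO libraries. TRAJ22 held 7.72% and 8.67% in the WT libraries, then 8.37% and 7.18% in the Tet2/3 DKO libraries, so that the genotypes overlapped. TRAJ31 held 6.42% and 5.73% in the WT libraries, then 6.15% and 9.68% in the Tet2/3 DKO libraries, and the high value of Tet2/3 DKO replicate 2 contained the largest TRAV7-2/7D-2 clone of that library, described below. By clones, where that clone counts once, TRAJ31 held 6.31%, 6.28%, 5.74% and 5.87%.

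Compared with other V segments of the same library, TRAV7-2/7D-2 clones used J segments farther from the V segments. By share of clones, 18 TRAJ segments were higher and 17 lower than in the other clones in all 4 libraries. The largest positive differences were those of TRAJ15, with 6.05% against 3.32% of clones (difference 2.73 ± 0.31 percentage points, SD, n = 4), TRAJ22 with 5.95% against 4.06%, and TRAJ30 with 4.28% against 2.92%. The largest negative differences were those of TRAJ57, with 0.100% against 1.93% (difference -1.83 ± 0.072), TRAJ56 with 0.284% against 1.998%, and TRAJ49 with 1.24% against 2.59%. TRAJ57 and TRAJ56 are among the J segments nearest to the V segments. The 8 TRAJ segments from TRAJ48 up to TRAJ58 were all lower in all 4 libraries, and together they held 3.25% to 3.52% of TRAV7-2/7D-2 clones against 12.9% to 13.5% of the others. Of the 21 TRAJ segments from TRAJ30 downwards, 16 were higher and 0 lower in all 4 libraries. The limits at TRAJ48 and TRAJ30 were not part of a planned comparison, and between them both directions occurred. TRAJ31, among the partners with most reads, was lower in all 4 libraries, with 6.05% against 7.13% of clones (difference -1.08 ± 0.20). TRAJ32, TRAJ34 and TRAJ35 were also lower in all 4, while TRAJ37 and TRAJ44 were higher.

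**Figure D2:**
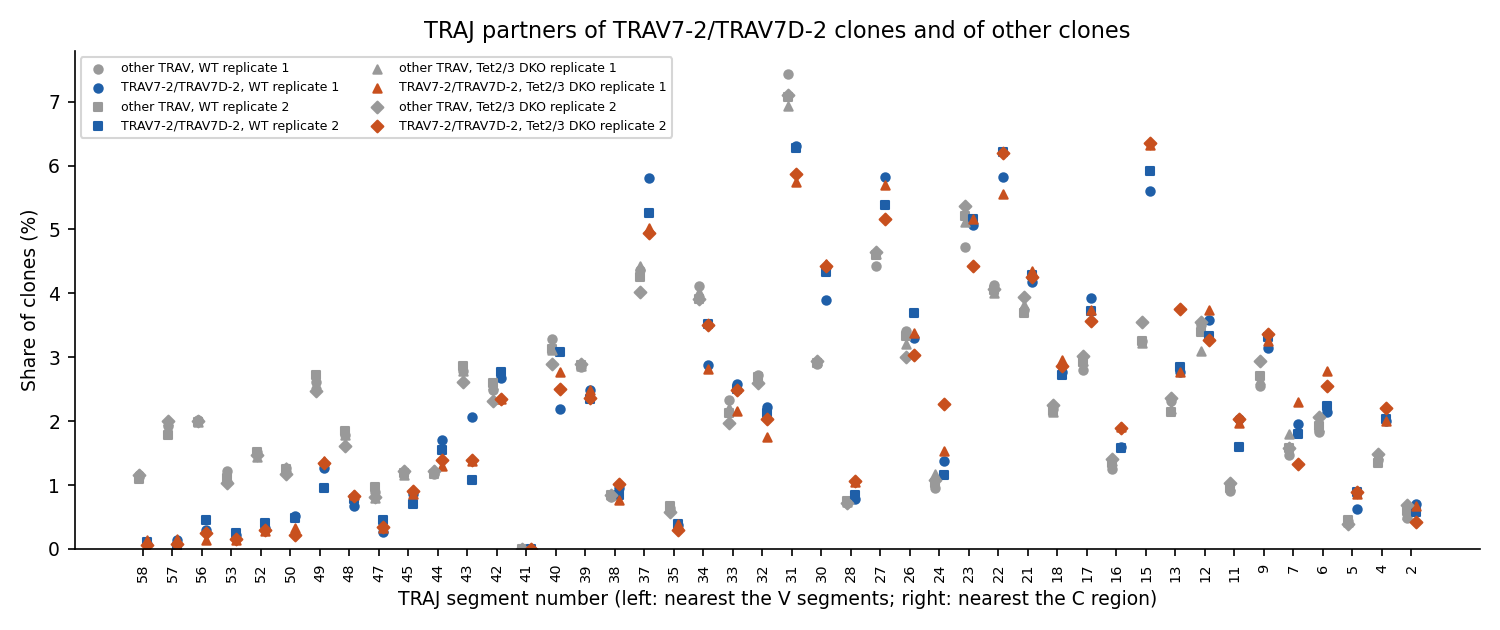
Share of clones (y axis, percent) that used each TRAJ segment (x axis, V-proximal segments on the left), for TRAV7-2/7D-2 clones in WT (blue) and Tet2/3 DKO (orange) libraries and for all other clones (grey), 1 marker per library. The coloured markers lie below the grey ones in all libraries for the 8 TRAJ segments from TRAJ58 to TRAJ48, and above them for TRAJ30, TRAJ22 and TRAJ15.

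The mean TRAJ number, where low numbers stand for J segments close to the C region, summarises this order. Weighted by reads it was 24.5 and 24.3 in the WT libraries, then 24.1 and 24.5 in the Tet2/3 DKO libraries, against 29.9, 29.6, 29.6 and 29.7 for the other V segments. The difference was -5.36 ± 0.14 (SD, n = 4 libraries) and was negative in 4 of 4 libraries (two-sided exact sign-flip permutation p = 0.125, adjusted 0.167). It was also negative in out-of-frame clones, which encode no receptor chain. There the mean TRAJ number was 25.9, 26.2, 25.3 and 25.6 for TRAV7-2/7D-2, from 171, 222, 221 and 261 clones, against 29.4, 29.3, 29.2 and 29.0, a difference of -3.47 in the mean. The V-proximal TRAJ48 to TRAJ58 were held by 6, 10, 9 and 5 of these out-of-frame clones, or 3.51%, 4.50%, 4.07% and 1.92%, against 11.6% to 11.98% of the other out-of-frame clones. The highest upper limit of the 4 Wilson intervals of the former was 8.09%. These intervals count clones within a library and cover counting error only, so they do not test the difference. The other out-of-frame clones were again a pool of V segments from many positions.

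The pooled other V segments included some near the J segments with far higher means. For TRAV7-2/7D-2 the mean TRAJ number by clones, 25.1, ranked 15 of 42 from the lowest, close to the median of 25.9 of the other 41 segments, which ranged from 21.1 to 49.2. TRAV7-3, 714 kb from Traj58 and so nearer than Trav7-2, had a mean of 25.2. TRAV7D-3, 1413 kb away and so nearer than Trav7d-2, had 25.2 as well. The 6 of the 42 segments within 70 kb of Trav7-2 had means from 21.7 for TRAV7N-6 to 30.7 for TRAV16N, with a median of 25.6. The 3 within 70 kb of Trav7d-2, which were TRAV7D-3, TRAV6-2 and TRAV5-1, had 24.0 to 25.3. The value lay within both ranges and did not separate the 2 gene positions. TRAV7-5, 626 kb away, had 31.0, and TRAV6-6, 640 kb away, had 29.9. In out-of-frame clones alone the mean of TRAV7-2/7D-2 was 25.7 and ranked 21 of 42 from the lowest. Beside single segments it therefore lay near the middle there too.

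**Figure D3:**
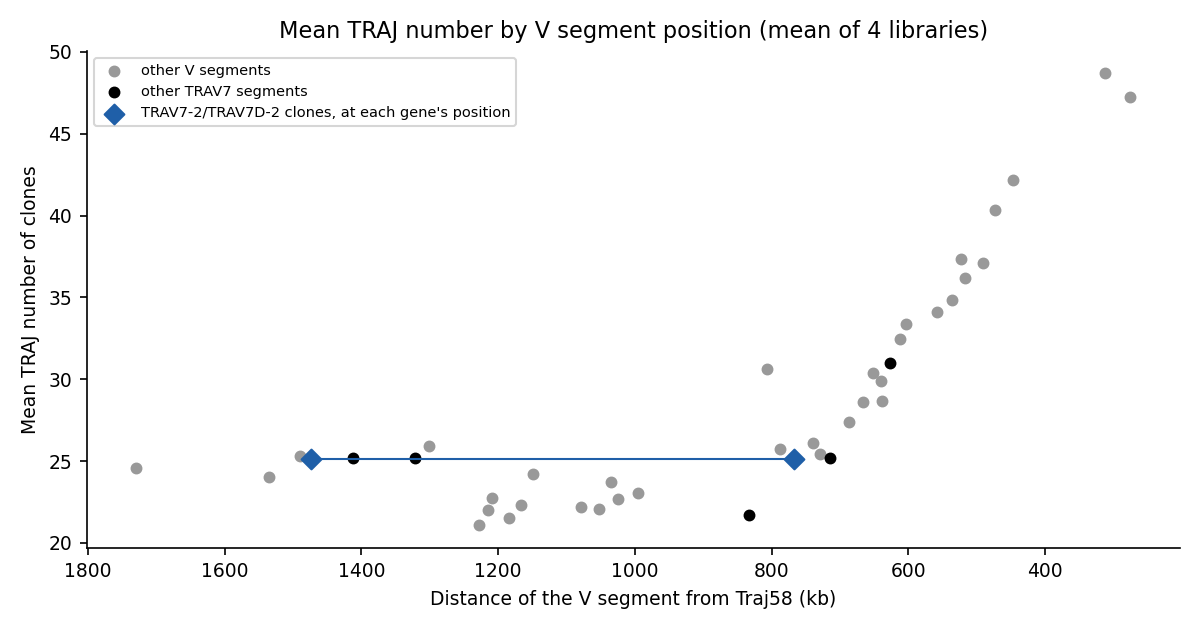
Mean TRAJ number of the clones of each V segment (y axis, axis not starting at 0, mean of 4 libraries) against the distance of its annotated gene from Traj58 (x axis, kb, V segments nearest to the J segments on the right). The value of TRAV7-2/7D-2, 25.1, is drawn at both gene positions, 767 and 1473 kb, joined by a line, since the clones could not be divided between them. 1 of the 42 segments had no annotated position under its name and is not drawn.

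The J profiles most like that of TRAV7-2/7D-2 were those of TRAV7-3, TRAV6D-7 and TRAV4-2, with Pearson correlations of 0.93, 0.92 and 0.91 across 44 TRAJ segments of the mean shares of clones. The median over the 41 other segments was 0.82. These are correlations across TRAJ segments, which are not independent replicates, and all profiles come from the same 4 libraries.

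No J partner of TRAV7-2/7D-2 passed the test between genotypes. Among 2218 V-J pairs with at least 40 reads, 43 were pairs of TRAV7-2, and 0 of all pairs passed the threshold in edgeR's quasi-likelihood test, a background of 0%. At an unadjusted p under 0.05 there were 110 pairs, or 4.96%, of which 0 belonged to TRAV7-2. With each clone counted once, 3 of 40 TRAV7-2 pairs, or 7.5%, had an unadjusted edgeR p under 0.05. This compares with 3.81% of all 1233 pairs in that fit, where 0 pairs passed the threshold. DESeq2 by reads called 11 pairs, with 0 of TRAV7-2. By reads, the smallest unadjusted p among TRAV7-2 pairs was that of TRAJ50, with 65 and 85 reads in WT and 45 and 31 in Tet2/3 DKO (log2 fold change -1.19 ± 0.58, SE, edgeR adjusted p = 0.930). For TRAJ31, with 1350, 1490, 1518 and 3233 reads, the log2 fold change was 0.37 ± 0.24 (SE, edgeR adjusted p = 0.945), and by clones it was -0.12. The mean TRAJ number by reads overlapped between genotypes, with 24.4 ± 0.20 for WT against 24.3 ± 0.26 for Tet2/3 DKO (SD over n = 2 libraries each, two-sided exact permutation p = 0.667). Counted by clones it did not overlap, with 25.5 and 25.4 in the WT libraries, then 24.7 and 24.9 in the Tet2/3 DKO libraries (two-sided exact permutation p = 0.333 with n = 2 per genotype, the smallest possible). The other V segments were also lower in Tet2/3 DKO by this count, with means of 29.7 in WT and 29.4 in Tet2/3 DKO.

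CDR3s of TRAV7-2/7D-2 were concentrated on fewer lengths. The mean length of in-frame CDR3s by reads was 13.26 and 13.28 amino acids in WT and 13.31 and 13.26 in Tet2/3 DKO, against 13.38, 13.38, 13.42 and 13.48 for other V segments. The difference was -0.14 ± 0.056 amino acids (SD, n = 4 libraries, negative in 4 of 4, two-sided exact sign-flip permutation p = 0.125, adjusted 0.167), and it shrank to -0.043 when each clone was counted once. Against the other TRAV7 segments it was -0.065, with 1 of 4 libraries of the other sign. By clones the SD of the length was 1.04 to 1.10 amino acids for TRAV7-2/7D-2 and 1.33 to 1.36 for the others pooled, which includes differences in mean length between segments. Beside single segments, the mean SD of TRAV7-2/7D-2, 1.08, was the lowest of the 42, where the other 41 ranged from 1.12 for TRAV14D-3-DV8 to 1.52 with a median of 1.27. CDR3s of 13 or 14 amino acids made up 68.1% to 71.0% of its clones and 59.5% to 60.0% of the others. CDR3s of at most 11 amino acids were 2.71% to 3.77% against 5.54% to 6.86%, and those of at least 16 were 2.10% to 2.53% against 5.24% to 5.96%. The WT mean length was 13.27 ± 0.018 and the Tet2/3 DKO mean was 13.29 ± 0.037 amino acids (SD over n = 2 libraries each, two-sided exact permutation p = 0.667). By clones the genotypes did not overlap, with means of 13.36 in WT and 13.404 in Tet2/3 DKO (two-sided exact permutation p = 0.333 with n = 2 per genotype), and the other V segments moved the same way, from 13.39 to 13.46.

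**Figure D4:**
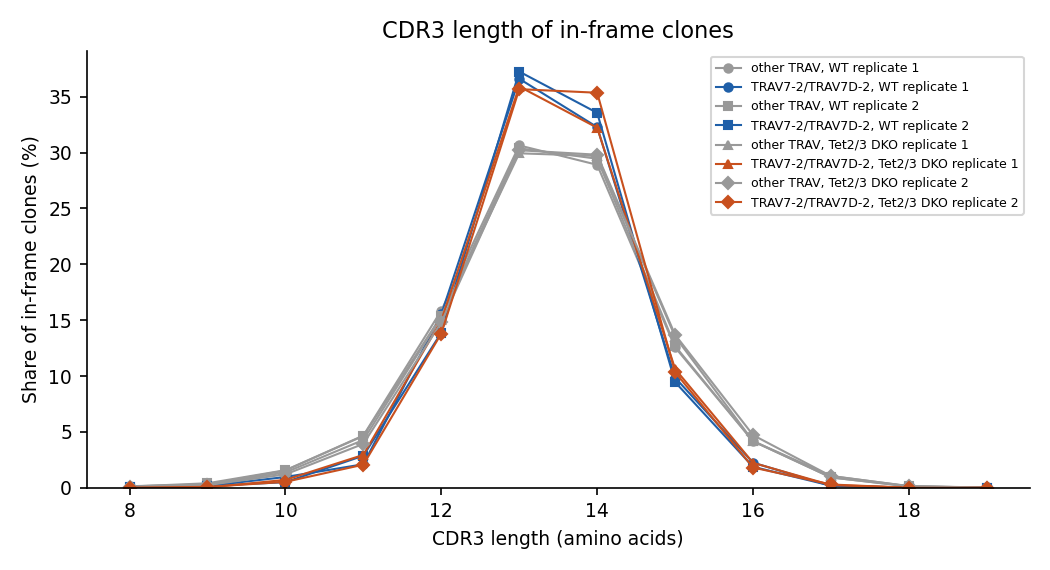
Share of in-frame clones (y axis, percent) by CDR3 length (x axis, amino acids), 1 line per library, for TRAV7-2/7D-2 in WT (blue) and Tet2/3 DKO (orange) and for all other V segments (grey). At 13 and 14 amino acids the TRAV7-2/7D-2 lines lie above the grey lines, and from 9 to 11 and from 15 to 18 they lie below.

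The bases between the V and the J part were counted from the deposited reference points, with palindromic bases taken as V or J. By reads their number did not differ in a constant direction, with 1.99, 1.93, 1.93 and 2.06 for TRAV7-2/7D-2 and 1.95, 1.96, 1.96 and 1.94 for other V segments (difference 0.020 ± 0.070, SD, n = 4 libraries, positive in 2 of 4, two-sided exact sign-flip permutation p = 0.625, adjusted 0.625). By clones it was higher in all libraries, with 2.56, 2.53, 2.51 and 2.63 against 2.21, 2.24, 2.24 and 2.19. Clones without any added base were 18.4% to 19.7% of TRAV7-2/7D-2 clones and 26.1% to 26.8% of the others. By reads these shares were 27.7% to 30.1% and 31.6% to 32.4%, so that clones without added bases held a larger share of reads than of clones in both. Against the other TRAV7 segments the difference by reads was negative, -0.19. The V end had lost a mean of 1.91 to 2.001 bases in TRAV7-2/7D-2 and 2.12 to 2.22 in the other V segments. Between genotypes the number of added bases by reads was 1.96 ± 0.044 for WT against 1.99 ± 0.091 for Tet2/3 DKO (SD over n = 2 libraries each, two-sided exact permutation p = 1).

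The most abundant TRAV7-2/7D-2 clone was a different one in each library. In WT replicate 1 it was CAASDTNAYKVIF with TRAJ30, with 305 reads or 0.177% of TCRα reads (Wilson interval 0.158% to 0.198%). In WT replicate 2 it was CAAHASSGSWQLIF with TRAJ22, with 237 reads or 0.109% (0.0964% to 0.124%). In Tet2/3 DKO replicate 1 it was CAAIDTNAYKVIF with TRAJ30, with 534 reads or 0.274% (0.252% to 0.298%), the largest TCRα clone of that library. In Tet2/3 DKO replicate 2 it was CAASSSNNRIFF with TRAJ31, with 1145 reads or 0.398% (0.376% to 0.422%), which ranked 6 among the TCRα clones there. The CDR3 nucleotide sequence of each was rare in the other 3 libraries, with 4 to 17 reads, 0 to 16 reads, 1 to 11 reads and 0 to 12 reads in the same order. Both Tet2/3 DKO clones held larger shares than both WT clones, but this compares 1 clone per library. Larger clones of other V segments were present in Tet2/3 DKO replicate 2, where the clone ranked 6. The 10 largest TRAV7-2/7D-2 clones together held 7.44% and 5.64% of the TRAV7-2/7D-2 reads in WT and 7.76% and 9.16% in Tet2/3 DKO. Neither difference was tested, and an exact permutation over 2 libraries per genotype cannot give a p-value below 0.333.

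TRAV7-2/7D-2 clonotypes were shared between libraries more often than those of other V segments. A clonotype here is a combination of V segment, J segment and in-frame CDR3 amino acid sequence. Of 7046 distinct TRAV7-2/7D-2 clonotypes, 4904 were found in 1 library, 1035 in 2, 523 in 3 and 584 in all 4. Over all V segments 2343 clonotypes were found in all 4 libraries, so TRAV7-2/7D-2 supplied 24.9% of these while it supplied 7.09% of all 99426 distinct clonotypes. The 584 clonotypes were 23.6% and 21.5% of the TRAV7-2/7D-2 clonotypes of the WT libraries and 21.7% and 19.4% of those of the Tet2/3 DKO libraries. For other V segments the shares were 7.24%, 5.90%, 6.06% and 5.47%. They were 12.04% to 14.8% for TRAV6-6 and 8.87% to 10.7% for TRAV7-5, and TRAV7-2/7D-2 ranked first among the 42 V segments. The 584 clonotypes held 51.9% to 54.7% of the in-frame TRAV7-2/7D-2 reads, against 15.6% to 17.6% for the shared clonotypes of other segments.

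Sharing moves with the number of reads, which was higher for TRAV7-2/7D-2, at 8.27 to 10.8 reads per clonotype against 4.99 to 6.88. When the TRAV7-2/7D-2 reads of each library were drawn down to the number of TRAV7-5 reads, 508 TRAV7-2/7D-2 clonotypes were found in all 4 libraries, 18.6% to 23.0% of its clonotypes, against 161 of TRAV7-5, 8.87% to 10.7%. The libraries reuse each other in such counts, so no test was made. Pairs of libraries of the same genotype did not stand apart from mixed pairs. WT replicates 1 and 2 shared 975 TRAV7-2/7D-2 clonotypes, the Tet2/3 DKO replicates shared 1069, and the 4 pairs of 1 WT and 1 Tet2/3 DKO library shared 948 to 1080. For other V segments the same pairs shared 4735, 5818 and 4674 to 5924 clonotypes. There were 150 TRAV7-2/7D-2 clonotypes found in both WT libraries and in no other, and 203 in both Tet2/3 DKO libraries and in no other. No such counts for other V segments were set beside these counts. Tet2/3 DKO replicate 2 had the most TCRα reads, 287799, and these counts were not corrected for depth. They are therefore not read as a difference between genotypes.

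**Figure D5:**
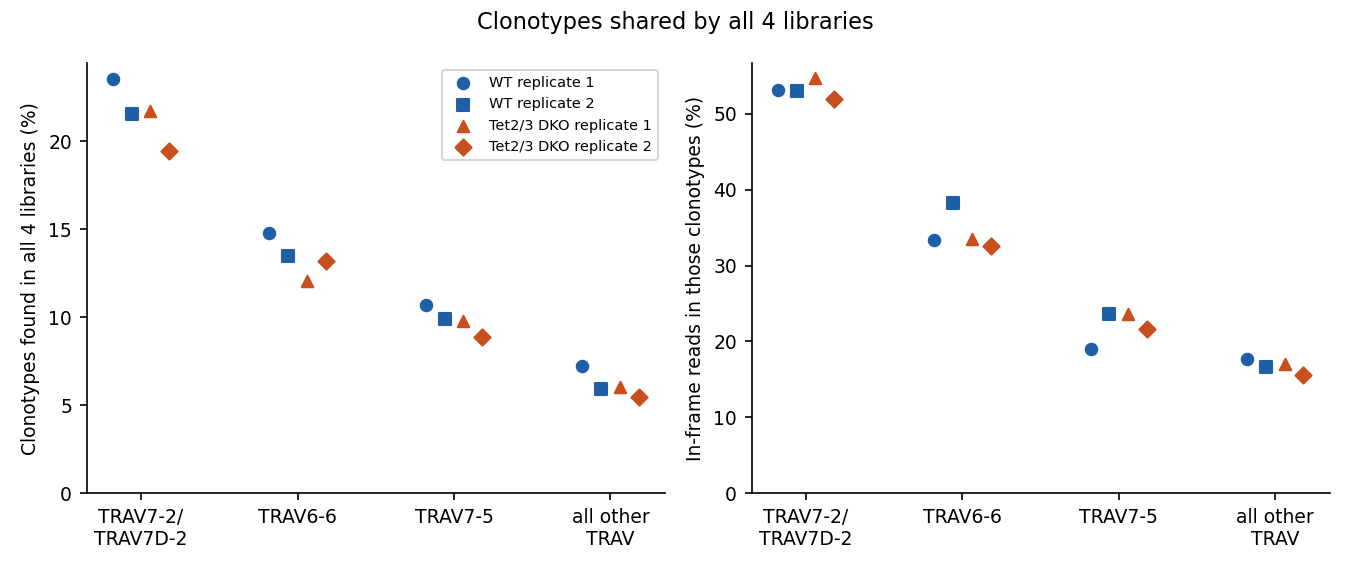
Left, share of the clonotypes of each library (y axis, percent) that were found in all 4 libraries, for TRAV7-2/7D-2, TRAV6-6, TRAV7-5 and all other V segments, 1 marker per library (WT blue, Tet2/3 DKO orange). Right, share of in-frame reads held by these clonotypes, where TRAV7-2/7D-2 lies at 51.9% to 54.7% and all other V segments together at 15.6% to 17.6%.

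The shared clonotypes had fewer added bases and were encoded in more ways. TRAV7-2/7D-2 clonotypes found in all 4 libraries had a mean of 1.65 to 1.71 added bases, against 3.58 to 3.65 for those found in 1 library. They were encoded by 1.67 to 1.97 distinct CDR3 nucleotide sequences per library, against 1.03 to 1.05. They also held more reads, 18.7 to 28.7 per clonotype against 4.08 to 4.96. More reads allow more sequences to be seen, so the contrast in sequences cannot be separated from depth here. The same order was seen in other V segments, with 0.899 to 0.939 added bases in shared clonotypes and 2.74 to 2.82 in those of 1 library. The 584 shared clonotypes used 36 TRAJ segments, with TRAJ22 and TRAJ15 in front, at 47 and 45 clonotypes.

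The 5 shared clonotypes with the largest mean share of TCRα reads fell into even and uneven ones. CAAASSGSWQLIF with TRAJ22 held 0.146% and 0.148% of TCRα reads in WT and 0.170% and 0.101% in Tet2/3 DKO, and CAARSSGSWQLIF with TRAJ22 held 0.104%, 0.0785%, 0.104% and 0.0834%. For both, the highest library was less than 2 times the lowest, at 1.67-fold and 1.33-fold. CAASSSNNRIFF with TRAJ31 held 0.00232%, 0.00970%, 0.0118% and 0.423%, so that nearly all of its mean came from Tet2/3 DKO replicate 2. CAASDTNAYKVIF with TRAJ30 was highest in WT replicate 1, with 0.215%, against 0.0250% to 0.0492% elsewhere. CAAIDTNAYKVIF with TRAJ30 was highest in Tet2/3 DKO replicate 1, with 0.282%. These 3 uneven clonotypes were those of the most abundant TRAV7-2/7D-2 clones of those libraries.

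The CDR3 sequence of each, in the form found in most libraries, is printed with the added bases in capitals. It shows how little was added to the V end and the J starts printed above.
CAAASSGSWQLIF: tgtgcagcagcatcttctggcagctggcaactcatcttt
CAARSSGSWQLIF: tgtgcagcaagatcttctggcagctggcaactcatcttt
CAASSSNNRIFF: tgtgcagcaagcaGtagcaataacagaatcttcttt
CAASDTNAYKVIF: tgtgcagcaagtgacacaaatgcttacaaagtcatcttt
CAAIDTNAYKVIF: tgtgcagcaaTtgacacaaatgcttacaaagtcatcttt
Palindromic bases, which were taken as V or J, are in lower case, so some lie outside both printed ends, as in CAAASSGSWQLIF. Apart from these, no base was added in both TRAJ22 sequences and in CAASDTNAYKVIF, and 1 base was in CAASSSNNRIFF and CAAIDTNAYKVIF. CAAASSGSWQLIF was encoded by 7 distinct nucleotide sequences over all libraries, of which 4 were found in all 4 libraries. These 4 are printed to show that 1 protein sequence was found with more than 1 nucleotide sequence in every library. They differ from each other at 1 base. Without molecular identifiers, separate joints cannot be told apart here from errors of amplification or sequencing.
Form 1: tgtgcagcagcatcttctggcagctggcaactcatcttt
Form 2: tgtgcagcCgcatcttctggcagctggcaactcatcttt
Form 3: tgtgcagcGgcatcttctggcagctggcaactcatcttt
Form 4: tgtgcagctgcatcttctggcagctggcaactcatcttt
Form 1 had 152, 190, 231 and 188 reads in WT replicates 1 and 2 and Tet2/3 DKO replicates 1 and 2, and form 2 had 55, 78, 54 and 66. Form 3 had 22, 27, 20 and 17 reads and form 4 had 22, 23, 15 and 21. Their order was nearly constant, with form 1 first and form 2 second in all 4 libraries.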

How the data were processed

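TCR SMART-seq libraries of splenic CD4 T cells from 2 WT and 2 Tet2/3 DKO mice were analysed. The authors prepared them with a 5′ RACE kit for mouse TCR α/β chains, trimmed reads with fastp 0.21.0, assembled clones with MiXCR 4.7.0, and deposited for each library a TCRα clone table with a count of reads per clone. The TCRβ tables and the libraries from thymus and from transferred cells were not used here. Labels give 2 biological replicates per genotype, and these libraries were the units of every test.

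Clones were kept as deposited, each a distinct variable region sequence, and named by the V and J segment listed at the front, with the allele dropped. Other V segments means all TCRα clones not listed under TRAV7-2 or TRAV7D-2, TRDV segments included. Clones without a covered CDR3, 0.0648% to 0.219% of TRAV7-2/7D-2 reads and 2.25% to 3.86% of other reads, stayed in shares of reads and J use but not in measures of the CDR3. Added bases were counted between the V end and the J start given by the deposited reference points. Gene positions were taken from RefSeq (GRCm38.p6).

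Counts per V segment (at least 10 reads in total) and per V-J pair (at least 40) were tested with edgeR 4.0.16 in R 4.3.3, quasi-likelihood, scaled by total reads, with Benjamini-Hochberg adjustment at 0.05. The fit was checked on simulated counts. SEs of its fold changes were derived from the test statistic. DESeq2 1.42.0 was an alternative. Values per library were compared by exact permutation over the 6 assignments of libraries, and differences within libraries by 16 sign flips. Python 3.11.15 was used with numpy, pandas and scipy.

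The segments, J partners, clones and lists were chosen with earlier results of these data known. Named J partners are the 5 with most reads and the 3 largest differences in each direction with 1 sign in all libraries. Named clones are the largest of each library and the 5 shared ones with the highest mean share. Named V segments are the 3 with the most similar J profile, the rest of the TRAV7 family and the next 3 by reads. Alternatives covered normalization, filters, clone weight, large clones, merging, copies, comparison set, depth, a replicate block and each library left out. Out-of-frame clones alone, in-frame reads per clone, the TRAV6-6 and TRAV7-5 comparisons, draws to the reads of TRAV7-5, and the share by clones were added after seeing the data.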

Additional observations from a re-analysis of the deposited data

How the results depend on the processing

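The in-frame share, CDR3 length and mean TRAJ number of TRAV7-2/7D-2 against other V segments kept their direction under every alternative, and none of them can pass 0.05 with 4 libraries. Leaving out each library in turn gave 8.63 to 9.14 percentage points, -0.15 to -0.11 amino acids and -5.41 to -5.30. The difference in added bases was positive in the main count and -0.19 against the other TRAV7 segments, and ranged from -0.010 to 0.039 with each library left out. Leaving out clones tied with a segment other than these, or adding clones tied with them but listed elsewhere, changed no value, since every clone was tied between TRAV7-2 and TRAV7D-2 and no other.

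Of the differences between genotypes within TRAV7-2/7D-2, that of the in-frame share kept its direction under every alternative, that of the tied share was 0, and the others reversed under at least 1. Without the 10 most abundant clones the in-frame share, CDR3 length and mean TRAJ number did not overlap between genotypes. Each had a two-sided exact permutation p = 0.333, the smallest possible with 2 libraries per genotype. The differences were -0.42 percentage points, 0.044 amino acids and -0.24. With each library left out they ranged from -0.0078 to 0.044 for CDR3 length (amino acids), from -0.31 to 0.062 for mean TRAJ number, from -0.032 to 0.096 for added bases, from -0.071 to 0.93 for reads per clone, from -0.63 to -0.053 percentage points for the in-frame share and from -0.50 to -0.081 for the effective number of TRAJ partners. The last was 0.066 with each clone counted once and 0.17 without the 10 most abundant clones. The log2 fold change of TRAV7-2 ranged from -0.059 to 0.066 with each library left out. It was -0.0029 with each clone counted once and -0.018 without the 10 most abundant clones.

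Of all V segments, 0 to 4 passed the threshold with each library left out, with 4 reached without Tet2/3 DKO replicate 1. Of all V-J pairs, 0 passed in the main fit, 11 with DESeq2, 50 without a filter on low counts, and 0 to 24 with each library left out, with 1 reached without WT replicate 2, 24 without Tet2/3 DKO replicate 1 and 2 without Tet2/3 DKO replicate 2. No pair of TRAV7-2 was among them. The replicate numbers did not pair the libraries. The deviations of the libraries numbered 1 correlated at 0.033 over V segments and -0.028 over V-J pairs. With the replicate number as a block, the log2 fold change of TRAV7-2 was 0.0035, and 0 V segments and 0 V-J pairs passed.

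The share of clonotypes found in all 4 libraries exceeded that of other V segments by a mean of 15.4 percentage points. It exceeded it by 9.38 points when matched by CDR3 nucleotides, TRAV6-6 by 8.20 and TRAV7-5 by 11.8. At the reads of TRAV7-5 in each library these were 7.97 and 11.3 points, with TRAV6-6 kept whole in Tet2/3 DKO replicate 2, where it had fewer reads. The mean share of TRAV7-2/7D-2 was 12.1% of reads and 9.16% of clones. Between 24.5% and 26.0% of its clones rest on 1 read, so clone counts and rare clonotypes are limited by depth.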
